A study of Mus musculus with 54 samples.

Results

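Replication-dependent histone genes encode the linker histone H1 and the core histones H2A, H2B, H3 and H4 that package newly copied DNA. They were chosen by name: every mouse gene whose symbol begins with Hist1h, Hist2h, Hist3h or Hist4h, or has the newer form H1f1 to H1f6, H2ac, H2bc, H3c or H4c. The rule uses symbols only, though it was set with earlier results of these data known. The rule found 70 genes among the 53379 gene identifiers of the count files. They comprise 6 H1, 20 H2A, 19 H2B, 12 H3 and 13 H4 genes, of which 67 are annotated as protein coding and 3 as pseudogenes. The Hist1 cluster on chromosome 13 holds 56 of them, the Hist2 cluster on chromosome 3 holds 10, the Hist3 cluster on chromosome 11 holds 3, and Hist4h4 stands alone on chromosome 6.

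RNA was sequenced from normal mouse cerebellum and from brain tumours of a pair of mouse models of medulloblastoma, a tumour of the cerebellum. Normal cerebellum came from C57BL/6 mice (BL6). The first tumour model is SmoA1, with the strain label "SmoA1 homo". SmoA1 is an activated form of the Hedgehog pathway protein Smoothened, carried as a transgene, and the labels do not give its promoter. The second model is Ptc, which the study's design text calls heterozygous and whose strain label is C57BL/6. Ptc mice lack a working copy of the Hedgehog receptor gene Ptch1. Mice of each kind received either sham handling or irradiation with 1 Gy, 5 h before tissue was collected. Each of the 6 groups holds 3 libraries, named here by the sample numbers of the labels. Ages are not given. Sample titles also carry biological replicate numbers, but in BL6 and SmoA1 these count the parts of a single numbered sample. Whether samples with different numbers are different animals is not stated. The p-values therefore measure the spread between these libraries, which may be partly technical.

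Cells make most of their histone protein during S phase, when these genes are switched on together. Their mRNAs lack introns and, unlike other mRNAs, usually end in a conserved stem-loop instead of a poly(A) tail. The stem-loop binding protein Slbp attaches there and directs 3' end cutting, translation and decay. Some members also make longer, polyadenylated transcripts that run past the stem-loop, mainly in cells that have left the cycle. The granule neuron progenitors from which this tumour arises divide rapidly, whereas mature cerebellar neurons do not divide.

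The stem-loop is the sequence that most of these genes share. A search of the annotated GENCODE transcripts on GRCm38 for a 16-base stem-loop found it in 46 of the 70 genes. The other 24 had no match, and 15 of those have no annotated transcript as long as 420 bases, so that little or no 3' end is annotated. The commonest form, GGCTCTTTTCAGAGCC, occurred in 26 genes of the classes H1, H2A, H2B and H3. All 12 H4 genes with a stem-loop carried another form, mostly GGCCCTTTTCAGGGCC, which was found in 7 of them. The stem-loops of genes on which the results below turn are shown with 5 bases on each side, 5' to 3' on the transcript strand, with the stem-loop in capitals.
Hist1h1c: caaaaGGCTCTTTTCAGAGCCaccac
Hist1h1d: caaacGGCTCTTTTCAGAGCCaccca
Hist3h2a: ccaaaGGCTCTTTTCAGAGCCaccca
Hist3h2ba: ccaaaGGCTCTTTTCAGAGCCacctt
Hist1h2bm: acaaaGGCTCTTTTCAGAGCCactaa
Hist1h3e: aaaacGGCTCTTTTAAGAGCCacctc
Hist1h4f: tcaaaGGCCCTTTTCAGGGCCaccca
Hist2h4: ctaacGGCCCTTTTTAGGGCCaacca
The annotated transcripts differ more in what follows. After the stem-loop, 33 annotated bases remain in Hist1h4f and 46 in Hist1h2bm, against 369 in Hist1h3e, 840 in Hist1h1c, 1257 in Hist2h4, 1643 in Hist3h2a and 4884 in Hist1h1d. Hist3h2ba has 169.

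Libraries differed by model in kind and depth. The 12 BL6 and SmoA1 libraries gave 540652 to 842997 gene counts each. Unmapped reads made up 45.8% to 76.1%, and both strands were about equally covered. The 6 Ptc libraries gave 34124031 to 51330146 gene counts each, with 2.53% to 6.16% of reads unmapped and at least 94.4% of counts on a single strand. Model and library type cannot be told apart, so levels of Ptc are not compared with those of BL6 or SmoA1. The 70 histone genes together drew 223 to 422 counts per BL6 or SmoA1 library and 4163 to 15536 per Ptc library. In BL6 and SmoA1 their pooled level was 4.83 to 7.83 CPM (counts scaled to library size) per exonic kb, below the median protein-coding gene at 8.45 to 9.13. Olfactory receptor genes, which should be silent in brain, pooled to 0.156 to 0.272 CPM per exonic kb there. Of uniquely mapped reads, 70.4% to 75.0% fell in no annotated gene in BL6 and SmoA1, against 12.5% to 14.3% in Ptc. How far the BL6 and SmoA1 counts follow mature mRNA was not tested.

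A pair of Ptc libraries stood apart from their groups. Sham replicate 2 goes against its label of brain tumour. The proliferation marker Mki67 was at 69.5 CPM there against 843 and 511 CPM in sham replicates 1 and 3, and the summed level of 7 Purkinje neuron markers was 8301 CPM against 197 and 1843 CPM. In replicate 2 after 1 Gy, 8 granule neuron progenitor markers summed to 1716 CPM against 5164 and 5541 CPM in 1 Gy replicates 1 and 3, close to the 1742 CPM of sham replicate 2. There, 9 microglia and macrophage markers summed to 2217 CPM against 327 and 1242 CPM, 6 astrocyte markers to 3274 CPM against 308 and 1173 CPM, and 6 endothelial markers to 734 CPM against 117 and 156 CPM. The noncoding gene Gm26917 lay at 41484 CPM in it, against 201 and 1302 CPM. The small nuclear RNA Rn7sk, which has no poly(A) tail, lay in the same library at 662 CPM. In these tissue samples, fewer cells of a type and less RNA per cell cannot be told apart.

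There were 7 members with 0 counts in all 18 libraries. These were Hist1h2aa and Hist1h2ba, which are known as testis genes, and Hist2h2aa1, Hist2h2aa2, Hist2h2bb, Hist2h3b and Hist2h3c1. In the last 5 of these, every 100-base stretch of the transcript also occurs in another annotated transcript. A count of 0 there says nothing about expression if only uniquely placed reads were counted. Sharing is widespread in the family. In 29 of 70 genes over 50% of all 100-base stretches recur in another gene's transcript, and the median gene shares 35.7%. Values of such genes are uncertain, because reads from near-identical copies were dropped or could be split. Among the genes named most often below, the share was 0% for Hist2h4, 0.792% for Hist1h1d, 6.59% for Hist1h2bm, 18.2% for Hist1h4f and 42.9% for Hist1h3e. Hist1h1e and Hist1h2be overlap each other on the same strand of chromosome 13, so part of their reads cannot be assigned.

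In the Ptc tumours 51 of the 70 genes had at least 1 count in every library, and a few held most of the counts. Across the 3 sham libraries, 4 genes held 65.9% of all histone counts: Hist3h2ba, Hist1h1c, Hist2h2be and Hist3h2a. Per exonic kb, the mean level in sham was 40.5 ± 3.41 CPM (SD, n = 3) for Hist3h2ba, 13.9 ± 9.09 for Hist1h1c and 10.4 ± 7.50 for the H2B gene Hist1h2bc. Next came Hist3h2a at 6.00 ± 0.363 and Hist2h2be at 5.98 ± 1.34 CPM per exonic kb, which do not differ beyond their spread. Hist1h1c and Hist1h2bc also overlap in this order, and only Hist3h2ba stands clear of the genes below it. Hist1h1c encodes the H1 subtype H1.2, and Hist3h2a and Hist3h2ba form a neighbouring H2A and H2B pair on chromosome 11.

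The summed level of all 70 genes was 97.1, 148 and 95.9 CPM in Ptc sham replicates 1, 2 and 3. After 1 Gy it was 123, 473 and 171 CPM in replicates 1, 2 and 3. One library, 1 Gy replicate 2, therefore held 3.73 times the mean of the other 5. The classes did not share this equally: the ratio was 11.9 for H3, 11.2 for H4 and 5.76 for H1, against 1.70 for H2A and 1.60 for H2B. By cluster it was 6.41 for Hist1, 1.16 for Hist2 and 0.472 for Hist3. In the other libraries the 4 genes named above made up 54.4% to 79.0% of histone counts, and in 1 Gy replicate 2 they made up 22.9%.

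**Figure D1:**
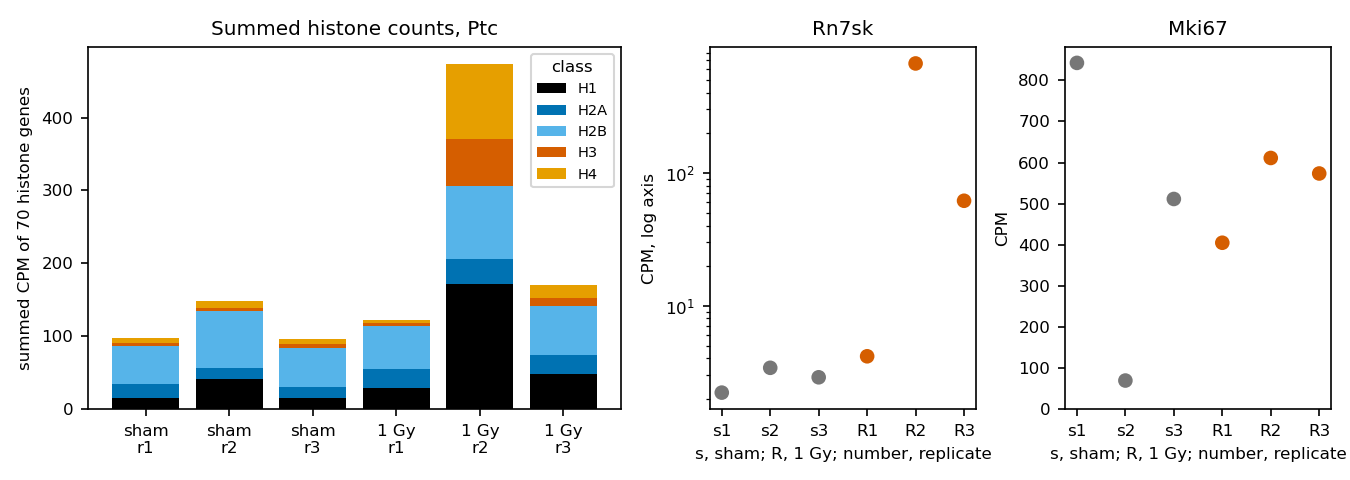
Left, summed CPM of the 70 histone genes in each Ptc library (r, replicate), stacked by histone class. Middle and right, CPM of Rn7sk (log axis) and of Mki67 in the same libraries; points are single libraries, sham in grey and 1 Gy in orange. Summed histone counts and Rn7sk are highest in 1 Gy replicate 2, at 473 and 662 CPM, whereas Mki67 is highest in sham replicate 1 and lowest in sham replicate 2.

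Most members with a Ptc count were highest in that library. Of the 63 members with any Ptc count, 56 were highest in 1 Gy replicate 2, and 44 had 1 Gy replicate 3 second. Among the 54 members with at least 30 counts over the 6 libraries, the ratio of 1 Gy replicate 2 to the mean of the other 5 had a median of 11.5 and exceeded 10 in 29 genes. The shares of all genes highest in this library, or beyond this ratio, are not given here. Whether these counts are particular to the family therefore cannot be told. Members described next for the size of this ratio were chosen after their values were seen.

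Hist1h4f, an H4 gene at chr13:23551258-23551648, lay at 0.187, 0.0646 and 0.166 CPM in sham replicates 1, 2 and 3. After 1 Gy it lay at 0.108, 14.8 and 0.956 CPM, so that replicate 2 was 50.1 times the mean of the other 5. Hist1h3e, an H3 gene, lay at 0.326, 0.0862 and 0.270 CPM in sham and at 0.237, 16.8 and 1.17 CPM after 1 Gy. In both genes replicate 1 after 1 Gy lay within the sham range, and the other 2 irradiated libraries lay above it.

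Among the linker histone genes, Hist1h1c had a smaller ratio than Hist1h1d and Hist1h1e. Hist1h1d, which encodes H1.3, was at 0.816, 0.862 and 0.436 CPM in sham and at 0.624, 33.5 and 4.31 CPM after 1 Gy. Hist1h1e, which encodes H1.4, was at 0.630, 2.46 and 0.457 CPM in sham and at 0.991, 43.6 and 3.58 CPM after 1 Gy. Hist1h1c started from a much higher level, with 12.8, 38.0 and 14.2 CPM in sham and 26.3, 77.0 and 38.0 CPM after 1 Gy. In Hist1h1c the ratio of 1 Gy replicate 2 to the other 5 was 2.98, against 23.8 in Hist1h1d and 26.9 in Hist1h1e.

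There were 6 members with at least 30 counts that had a ratio under 2, among them Hist2h2be, Hist3h2a and Hist3h2ba. Hist3h2a was at 13.8, 12.5 and 12.4 CPM in sham and at 23.2, 6.67 and 16.5 CPM after 1 Gy. Hist3h2ba was at 26.2, 25.9 and 22.4 CPM in sham and at 34.1, 12.3 and 27.2 CPM after 1 Gy. Both were lowest in the library in which most other members were highest. Hist2h2be lay between 11.3 and 19.7 CPM in all 6 libraries.

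Genes with short and long annotated stretches past the stem-loop overlapped in this ratio. The median ratio was 6.93 over 17 genes with more than 200 annotated bases after the stem-loop, 11.5 over 23 genes with at most 200, and 13.8 over 14 genes with no annotated stem-loop. Each set held ratios under 1 and over 30. Hist3h2a with 1643 bases and Hist3h2ba with 169 bases had the lowest ratios of their sets, at 0.426 and 0.452.

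**Figure D2:**
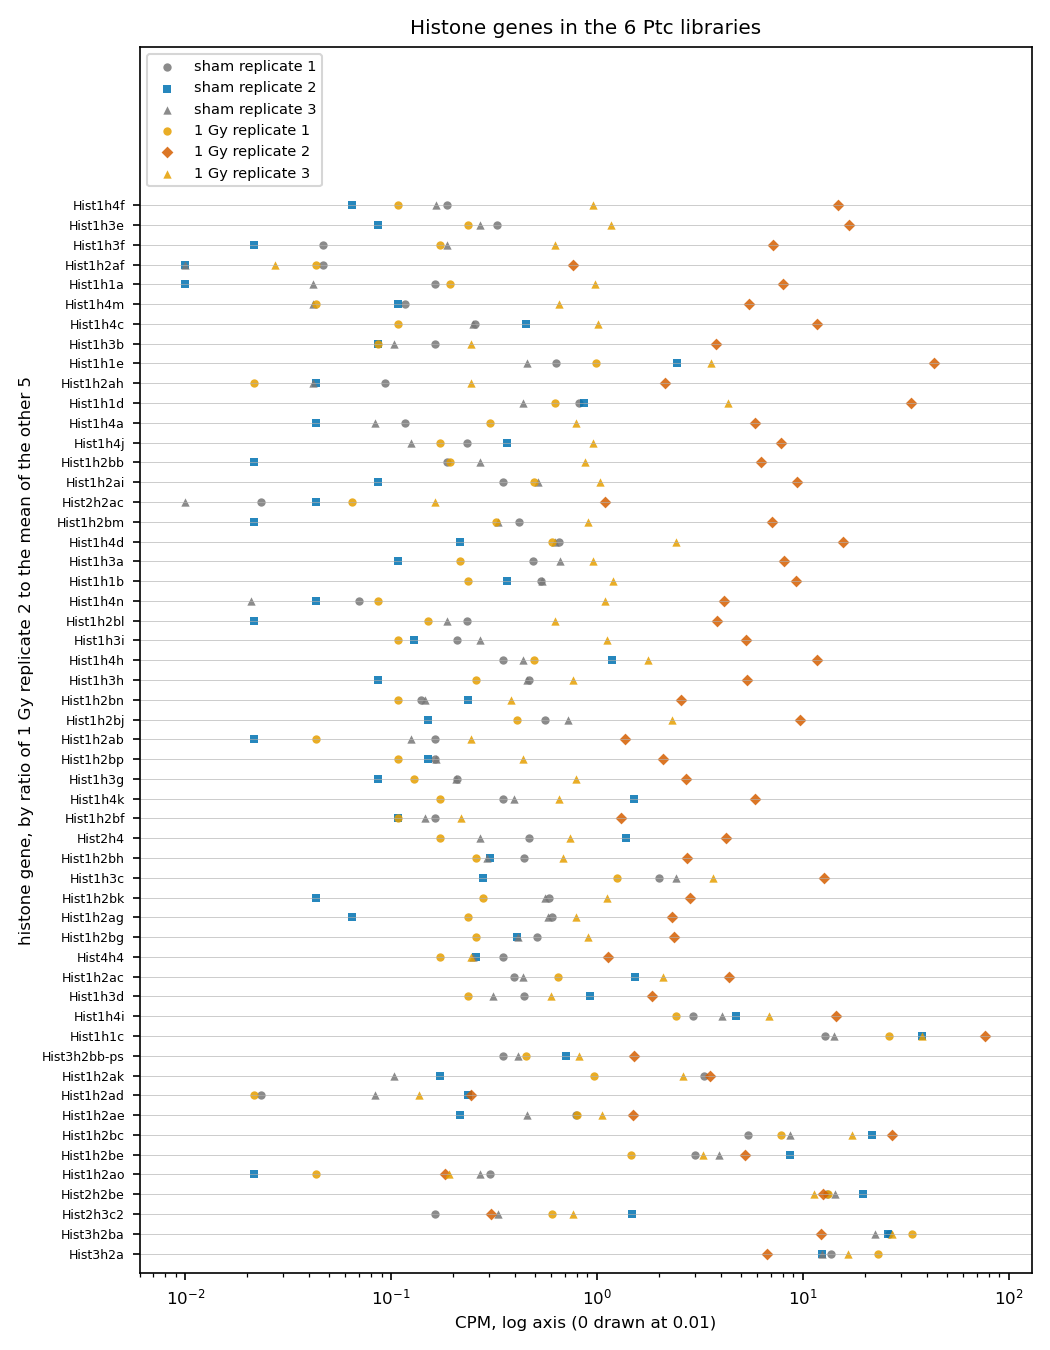
CPM (log axis) of the 54 histone genes with at least 30 counts over the Ptc libraries, 1 point per library, ordered by the ratio of 1 Gy replicate 2 to the mean of the other 5. The diamond for 1 Gy replicate 2 lies to the right of the other points in all but the lowest rows, where Hist3h2a and Hist3h2ba have it leftmost.

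Sham replicate 2, the library with low Mki67, also divided the family, but along another line. Of the 34 members with at least 30 counts over the sham libraries, 12 were under 0.5 times and 11 were over 2 times the mean of sham replicates 1 and 3. The shares of all genes beyond these limits are not given here. Hist1h2bm, an H2B gene, was at 0.420, 0.0215 and 0.333 CPM in sham replicates 1, 2 and 3. Hist1h2bk was at 0.583, 0.0431 and 0.561 CPM, and the H3 gene Hist1h3c at 2.01, 0.280 and 2.43 CPM. These genes were lowest where Mki67 was lowest, whereas the next ones were highest there. Hist1h1c, given above, was 2.82 times as high in sham replicate 2 as in the mean of the others. The H2B genes Hist1h2bc and Hist1h2be were 3.09 and 2.53 times as high, and the H3 gene Hist2h3c2 was 6.00 times as high. Hist3h2ba and Hist3h2a, at ratios of 1.06 and 0.954, belonged to neither side. Hist1h2bm, Hist1h2bk and Hist2h3c2 were chosen after their values were seen, and no test was made over 3 sham libraries.

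For the comparison of 1 Gy with sham in Ptc, 38 of the 70 members passed the filter on low counts. With edgeR's quasi-likelihood test and Benjamini-Hochberg adjustment, none was called at an adjusted p under 0.05, and 0.0% of all 19571 genes tested were called. At an unadjusted p under 0.05 there were 13 of 38 members and 1421 of all genes, which is 7.26% of those tested. DESeq2 called 3 members and 1.62% of all genes. The median log2 fold change of the members was 1.82, against 0.00 over all genes, and 34 of 38 were above 0. Members that passed the filter only through the irradiated group, among them Hist1h4a, contribute to this median. Hist1h4f, which had the highest ratio in 1 Gy replicate 2, did not pass the filter and was not tested. It was 0.61 over 40 members without 1 Gy replicate 2, and 0.60 over 39 members without both libraries numbered 2, where 34 were above 0.

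Hist1h4a, an H4 gene chosen after its values were seen, had a log2 fold change of 4.79 ± 1.28 (SE) and an adjusted p of 0.685 by edgeR's quasi-likelihood test. Its values were 0.117, 0.0431 and 0.0831 CPM in sham and 0.301, 5.88 and 0.792 CPM after 1 Gy, without overlap. With 5, 2 and 4 counts in sham, it passed the filter on low counts through the irradiated libraries alone. Its lack of overlap was therefore set by the filter and is no separate evidence. Hist1h2ae was the only other tested member without overlap between the groups. These 2 of 38 members stand beside 7.06% of all tested genes that were higher after 1 Gy without overlap. No tested member was lower without overlap, beside 6.33% of all genes. Hist1h1d had a log2 fold change of 4.18 ± 1.38 and Hist1h3e of 4.72 ± 1.62, both with an adjusted p of 0.685. Without 1 Gy replicate 2 the log2 fold change was 1.80 for Hist1h1d, 1.61 for Hist1h3e and 2.71 for Hist1h4a, each with an adjusted p of 0.911 by edgeR's quasi-likelihood test. Without both libraries numbered 2 it was 1.97, 1.22 and 2.41 in the same order. Hist3h2ba, at -0.02 ± 0.39, lay close to 0. DESeq2 called Hist1h1d, Hist1h3e and Hist1h4a, and the fit of all 18 libraries, which called 6.22% of all genes, called Hist1h1d, Hist1h1e and Hist1h4d of the 15 members it tested.

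Other RNAs moved with the histone genes in the irradiated Ptc libraries. Rn7sk was at 2.22, 3.4 and 2.89 CPM in sham and at 4.16, 662 and 61.4 CPM after 1 Gy. Genes annotated as ribosomal RNA summed to 566, 393 and 554 CPM in sham and to 621, 3648 and 1375 CPM after 1 Gy. Both have the order of the histone sum after 1 Gy, with replicate 2 first and replicate 3 second. Rn7sk and the ribosomal RNA genes were chosen after their values were seen. Genes annotated as small nuclear RNA, a set that does not hold Rn7sk, by contrast summed to 30.9 to 40.1 CPM in all 6 libraries. The 15 mitosis genes summed to 3220.0, 283 and 2296 CPM in sham and to 1823, 3128 and 3147 CPM after 1 Gy. The 30 DNA replication genes summed to 3800.5, 673 and 2773 CPM in sham and to 2334, 2125 and 2428 CPM after 1 Gy. All 9 microglia and macrophage markers were in the files, and their sum ranged from 163 to 399.8 CPM in sham and from 327 to 2217 CPM after 1 Gy. The part of these differences in the histone values was not tested.

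For 1 Gy in Ptc, edgeR called 0.0% of all 19571 genes, so 0 calls in a list could not set that list apart. All 22 genes of the list that makes and processes histone mRNA were tested, with 0 called in either direction. None had an unadjusted p under 0.05 by edgeR's quasi-likelihood test, beside 7.26% of all genes. Their median log2 fold change was -0.05. In 6 of the 22 the irradiated libraries lay below all sham libraries, beside 6.33% of all genes. Slbp was at 70.1, 27.9 and 65.1 CPM in sham and at 49.2, 41.3 and 52.5 CPM after 1 Gy. Npat, the coactivator that switches on histone genes at S phase entry, was at 56.4, 43.1 and 47.8 CPM in sham and at 42.9, 30.5 and 36.2 CPM after 1 Gy, without overlap. In 1 Gy replicate 2, the library with the highest histone sum, Npat was lowest of the 6 libraries. Histone variants outside the rule had 0 of 11 called and a median of 0.34, with H3f3b, a replication-independent H3.3 gene, at 1185 ± 407 CPM in sham and 1867 ± 891 CPM after 1 Gy (SD, n = 3). DESeq2 was not summarised for these lists.

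Normal cerebellum and SmoA1 tumour were compared next, first without radiation. The summed histone level was 453, 326 and 403 CPM in BL6 sham replicates 1, 2 and 3. In SmoA1 sham replicates 1, 2 and 4 it was 339.7, 427 and 405 CPM. The groups overlapped, with means of 394 ± 64.1 and 390.3 ± 45.2 CPM (SD, n = 3) and a ratio of 0.991. Counting error alone is wide at this depth: the 95% exact Poisson interval of SmoA1 sham replicate 1 ran from 298 to 385 CPM. Intervals and floors given here cover counting error only.

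Genes of the cell cycle differed between the same libraries. In SmoA1 sham, 20 of 29 tested DNA replication genes and 13 of 15 mitosis genes were called higher and none lower, beside 7.07% of all genes called higher. Mki67 rose from 36.6 ± 8.70 to 213 ± 30.6 CPM (SD, n = 3), a log2 fold change of 2.56 with an adjusted p of 9.97e-10 by edgeR's quasi-likelihood test. Dtl, a replication licensing regulator, rose from 12.3 ± 3.53 to 123 ± 18.5 CPM. Histone chaperones, which carry new histones to the fork, had 7 of 18 higher and none lower, with Chaf1b at 3.90 times and Nasp at 1.47 times its BL6 level. The median log2 fold change was 1.50 for mitosis, 0.76 for DNA replication and 0.34 for chaperones. For the 11 histone members tested it was -0.05, against 0.01 over all genes. The low-count filter kept 8 of 18 members with over 200 annotated bases after the stem-loop and 1 of 28 with at most 200. No H3 gene and 1 H4 gene were tested, so the median leaves most of the family out.

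**Figure D3:**
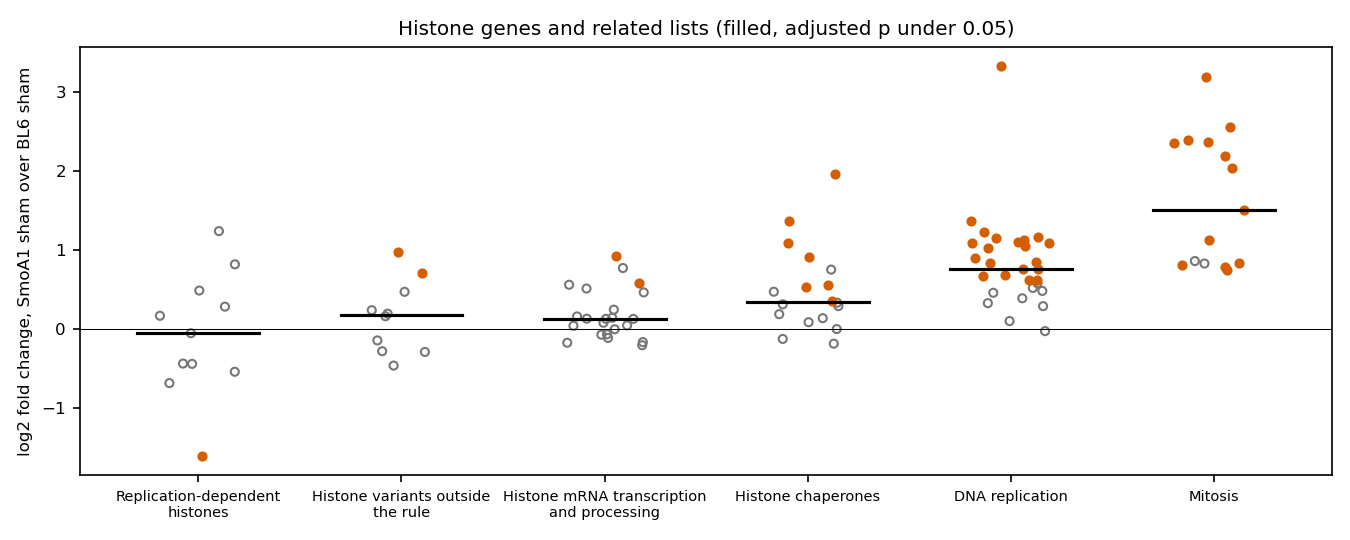
Log2 fold change of SmoA1 sham over BL6 sham for each tested gene of 6 lists; filled points passed an adjusted p under 0.05, bars mark the median. The histone members lie around 0 with Hist2h4 lowest, while the mitosis genes are all above 0 with a median of 1.50.

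One histone gene of 11 was called between SmoA1 and BL6 sham, where 16.5% of all 16428 genes tested were called and 9.4% were called lower. Hist2h4, an H4 gene at chr3:96261682-96263311, lay at 26.2, 30.7 and 30.2 CPM in BL6 sham. In SmoA1 sham it lay at 7.08, 12.2 and 8.99 CPM, with no overlap. The log2 fold change was -1.60 ± 0.36 (SE) with an adjusted p of 0.00243 by edgeR's quasi-likelihood test and Benjamini-Hochberg adjustment. The call ended in the fit of all 18 libraries, with an adjusted p of 0.512, and the gene was not among the 6 members tested in the strand column.

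Other members did not pass. Hist3h2ba was at 6.99, 2.92 and 15.1 CPM in BL6 sham and at 22.6, 17.0 and 19.3 CPM in SmoA1 sham, higher in all 3, with a log2 fold change of 1.24 ± 0.46 and an adjusted p of 0.0689. Hist1h1d was at 26.2, 7.30 and 15.1 CPM and at 24.1, 29.2 and 30.8 CPM, with a log2 fold change of 0.82 ± 0.37 and an adjusted p of 0.150 (edgeR's quasi-likelihood test for both). Hist1h1e was lower in all 3 SmoA1 libraries, with a log2 fold change of -0.69 ± 0.39. In all, 1 of 11 members was higher without overlap and 2 were lower without overlap, beside 15.2% and 16.1% of all tested genes. Hist1h2be, Hist2h2be and Hist3h2a, H2B and H2A genes among those with the highest mean CPM, had log2 fold changes of -0.44, -0.05 and 0.17 and adjusted p-values of 0.295, 0.937 and 0.800 by edgeR's quasi-likelihood test.

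Cell type markers differed between these groups as well. In SmoA1 sham, 7 of 8 granule neuron progenitor markers were called higher, and 5 of 7 mature granule neuron and 6 of 6 interneuron markers were called lower. The progenitor markers summed to 402 to 473 CPM in BL6 and to 669.7 to 876 CPM in SmoA1, and the interneuron markers to 467 to 517 and 190.1 to 241 CPM. Their part in the histone values was not tested.

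Some members under the filter had counts in SmoA1 sham and none in BL6 sham. They were chosen after their values were seen. Hist1h1a, the H1.1 gene, drew 0 counts in each BL6 sham library and 5, 4 and 6 counts in the SmoA1 sham libraries. Hist1h2bm drew 0 counts in each BL6 sham library and 5, 8 and 2 in SmoA1, and Hist1h4f 0 in each and 4, 4 and 2. Measured against a floor of 3 counts over the BL6 sham group, the SmoA1 level was 4.01 times the floor for Hist1h1a and Hist1h2bm. For Hist1h4f it was 2.68 times the floor. These ratios leave out the counting error of the SmoA1 counts. With no filter on low counts, edgeR called these 3 genes higher in addition to Hist2h4, 4 of 56 members tested, beside 4422 of all 36799 genes tested in that fit. Hist1h2bm and Hist1h4f are among the members that end within 200 annotated bases of the stem-loop, whose sum was 1.47 times as high in SmoA1 sham as in BL6 sham. The sum of members annotated further than that was 0.880 times as high. Sums of the first kind were 78.7, 38.0 and 67.1 CPM in BL6 and 84.9, 113 and 71.9 CPM in SmoA1, with overlap. They hold Hist1h2bm and Hist1h4f, chosen for their counts here, and Hist3h2ba, described above. The higher sum is therefore no evidence separate from these genes.

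After 1 Gy the summed level was 432, 442 and 369 CPM in BL6 replicates 2, 3 and 4. In SmoA1 replicates 1, 2 and 3 it was 473, 509 and 528 CPM, above all BL6 libraries. The means were 414 ± 39.5 and 503 ± 28.0 CPM (SD, n = 3). None of 11 members was called between the irradiated groups by edgeR or DESeq2, and edgeR called 6.92% of all 16990 genes. At an unadjusted p under 0.05 there were 2 of 11 members and 17.8% of all genes. The members' median log2 fold change was 0.11, against -0.01 over all genes. Hist1h1d was at 34.7, 23.8 and 19.6 CPM in BL6 and at 48.3, 44.6 and 43.5 CPM in SmoA1, with a log2 fold change of 0.79 ± 0.26 and an adjusted p of 0.0676 by edgeR's quasi-likelihood test. Hist1h1c and Hist1h1d were the 2 of 11 members higher without overlap, beside 11.6% of all genes, and none was lower without overlap, beside 10.3%. Without BL6 1 Gy replicate 2, Hist1h1d was called by the same test, at an adjusted p of 0.0350. Hist2h4 had the sign it had in sham, at -0.85 ± 0.43, with an adjusted p of 0.308.

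In SmoA1, 1 Gy was followed by higher summed histone levels, while no single member passed the test. The 12 tested members gave no call by edgeR or DESeq2, while edgeR called 2.17% of all 16690 genes. At an unadjusted p under 0.05 there were 3 of 12 members and 14.1% of all genes. Their median log2 fold change was 0.32, with 9 of 12 above 0, against -0.02 over all genes. The summed level went, without overlap, from 339.7, 427 and 405 CPM in sham to 473, 509 and 528 CPM, a ratio of means of 1.29. The H1 class went from 63.7, 83.9 and 89.9 CPM to 112, 112 and 112 CPM, again without overlap. So did H2A, from 49.5, 63.2 and 60.4 CPM to 71.0, 90.4 and 77.3 CPM. H2B went from 140, 160 and 152 CPM to 168, 165 and 181 CPM, also without overlap. The H3 and H4 sums overlapped between the groups.

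Hist1h1d contributed most to the H1 class. It was at 24.1, 29.2 and 30.8 CPM in SmoA1 sham and at 48.3, 44.6 and 43.5 CPM after 1 Gy, a log2 fold change of 0.69 ± 0.24 with an adjusted p of 0.159. Hist1h2ac, an H2A gene, was at 15.6, 23.1 and 10.3 CPM and at 27.0, 32.5 and 28.1 CPM, with 0.83 ± 0.33 and an adjusted p of 0.251. Hist4h4, chosen after its values were seen, was at 5.66, 12.2 and 2.57 CPM and at 14.2, 15.7 and 14.0 CPM, with 1.07 ± 0.51 and an adjusted p of 0.351 (edgeR's quasi-likelihood test for all 3 genes). These 3 of 12 members were the ones higher without overlap, beside 9.69% of all genes, and none was lower without overlap, beside 8.85%. The H2B genes Hist1h2be and Hist2h2be, at 0.45 ± 0.25 and -0.33 ± 0.29, and Hist3h2a, at -0.12 ± 0.33, overlapped between the groups.

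DNA replication genes mostly had log2 fold changes below 0 in the same libraries. Of 29 tested, 2 were called lower and none higher, 28 had a log2 fold change below 0, and the median was -0.39, beside 0.192% of all genes called lower. Ung fell from 91.7 ± 12.1 to 41.8 ± 11.4 CPM and Mcm5 from 111 ± 12.4 to 65.4 ± 5.63 CPM (SD, n = 3). Chaf1a, the large subunit of the chaperone that loads H3 and H4 behind the fork, fell from 80.4 ± 20.6 to 37.8 ± 7.94 CPM, with an adjusted p of 0.0127 by edgeR's quasi-likelihood test. None of 22 histone mRNA processing genes was called, 3 had an unadjusted p under 0.05, and their median was -0.10. Among markers of mature cells, 2 of 6 interneuron markers and 1 of 7 mature granule neuron markers were called higher, beside 1.98% of all genes. Their summed levels ranged from 190.1 to 241 and from 335 to 376 CPM in sham, and from 281 to 436 and from 320.3 to 554 CPM after 1 Gy. Their part in the histone values was not tested.

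In normal cerebellum no member passed the test after 1 Gy. None of 7 tested members was called by edgeR or DESeq2 or had an unadjusted p under 0.05 (3.98% of all genes had one), and edgeR called 0.0126% of all 15918 genes. The members' median log2 fold change was 0.03, against 0.00 over all genes. Summed levels of 453, 326 and 403 CPM in sham and 432, 442 and 369 CPM after 1 Gy overlapped. Hist1h1d was at 26.2, 7.30 and 15.1 CPM and at 34.7, 23.8 and 19.6 CPM, with a log2 fold change of 0.72 ± 0.39 and an adjusted p of 0.998. Hist2h4 was the only member without overlap, lower at 25.2, 18.3 and 16.8 CPM after 1 Gy, with -0.53 ± 0.31 and an adjusted p of 0.998 (edgeR's quasi-likelihood test). Genes lower without overlap made up 4.88% of all those tested, and genes higher without overlap 4.61%.

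**Figure D4:**
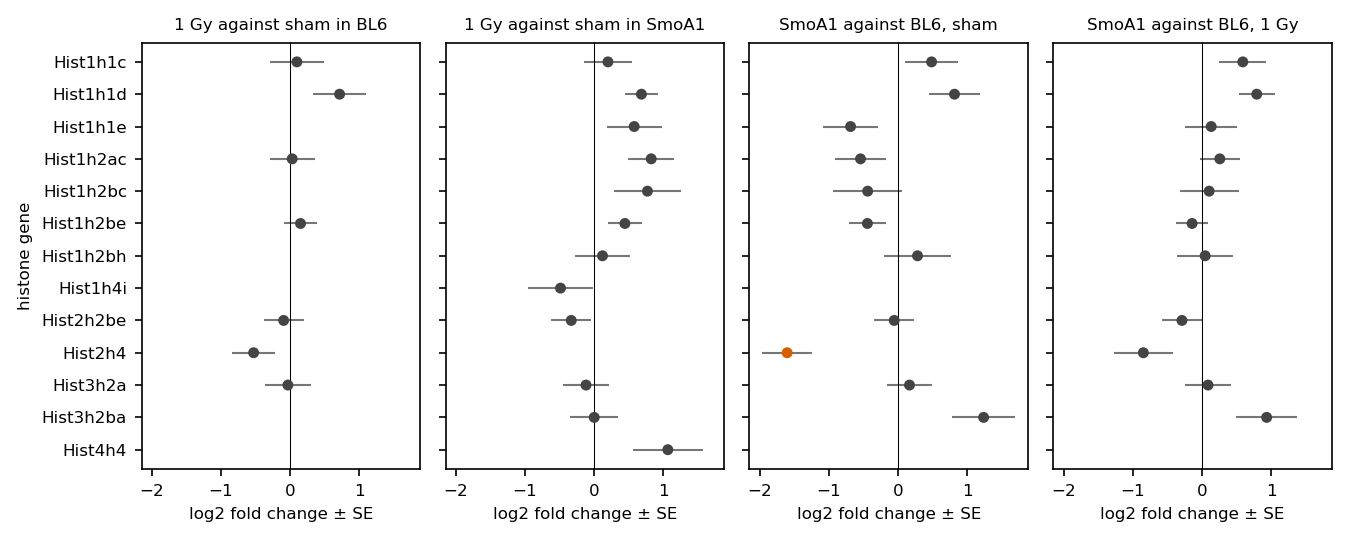
Log2 fold change with SE of every histone gene that passed the filter in the 4 comparisons of BL6 and SmoA1 groups (3 libraries a group). Hist2h4 in SmoA1 against BL6 sham is the single point with an adjusted p under 0.05, drawn in orange.

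**Figure D5:**
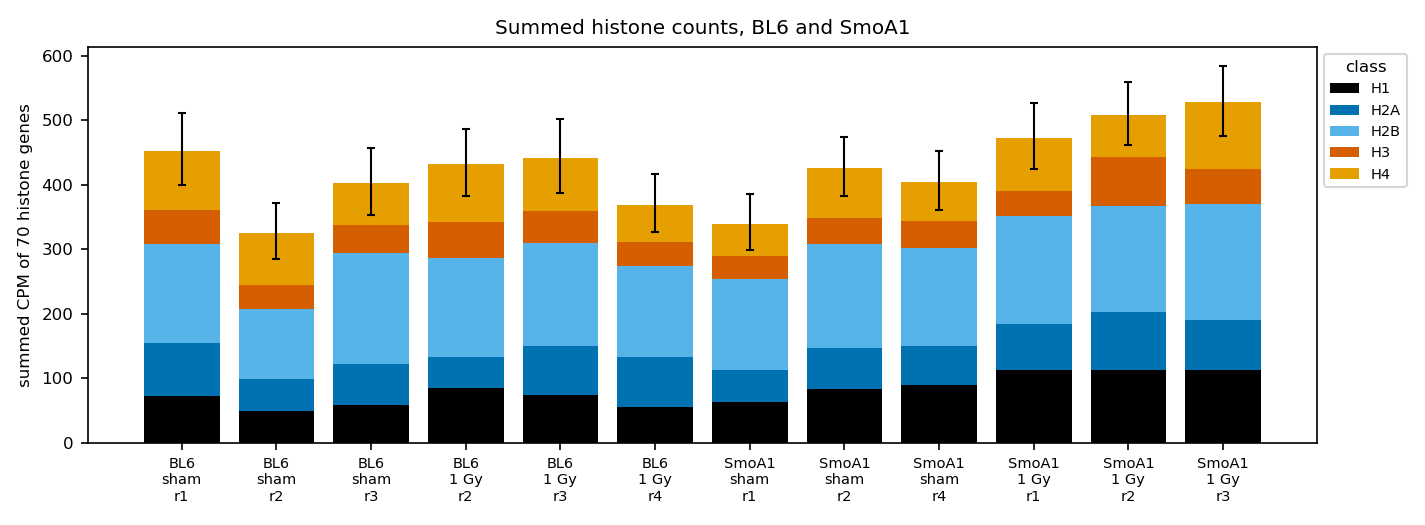
Summed CPM of the 70 histone genes in each BL6 and SmoA1 library (r, replicate), stacked by class, with 95% exact Poisson intervals of the sum. The 3 SmoA1 libraries after 1 Gy, at 473 to 528 CPM, stand above the other 9, at 326 to 453 CPM, and several intervals overlap.

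No member passed the test of whether the change after 1 Gy differed between models. In the interaction of SmoA1 with BL6, 0 of 11 members were called and 0 had an unadjusted p under 0.05, beside 1.06% of all 18188 genes called and 11.2% at an unadjusted p under 0.05. The largest difference was in Hist1h1e, at 0.83 ± 0.55 on the log2 scale. In the same test the chaperone genes Mcm2 and Chaf1a were called, with differences of -1.10 and -1.34. In the interaction of Ptc with SmoA1, 0 of 53 members were called beside 0.00365% of all 27377 genes called. At an unadjusted p under 0.05 there were 12 of 53 members and 8.24% of all genes. DESeq2 called no member in either interaction. The members' median difference between Ptc and SmoA1 was 2.00, against 0.19 over all genes, and it was 0.27 over 14 members without both Ptc libraries numbered 2. Both changes enter this difference, and library type cannot be told apart from model in it.

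Promoters of the family carry known histone promoter elements. RefSeq promoter windows on GRCm38.p6, from 250 bases before to 50 after the start, were matched for 61 members. CCAAT, searched on both strands, occurred in 52 of the 61 windows, 85.2%, against 37.9% of all 27025 windows. It was present in every matched H1, H2A, H2B and H3 gene and in 3 of 12 H4 genes. TATAAA occurred in 57.4% of members and 14.2% of all windows. The octamer ATTTGCAT, bound by Oct1 at H2B genes, occurred in 21.3% of members against 1.75% of all windows, in 7 H2A and 6 H2B genes and in no gene of another class. None of these motifs contains another, and a match describes letters only.

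Windows of 3 members are shown because their genes moved differently in Ptc: Hist1h2bm was lowest in sham replicate 2, Hist1h4f had the highest ratio in 1 Gy replicate 2, and Hist1h1c was high throughout. They lie at chr13:21721794-21722093 on the plus strand, chr13:23551619-23551918 on the minus strand and chr13:23738557-23738856 on the plus strand. Each is written 5' to 3' in the direction of transcription, with matches to these 3 motifs on either strand in capitals.
Hist1h2bm: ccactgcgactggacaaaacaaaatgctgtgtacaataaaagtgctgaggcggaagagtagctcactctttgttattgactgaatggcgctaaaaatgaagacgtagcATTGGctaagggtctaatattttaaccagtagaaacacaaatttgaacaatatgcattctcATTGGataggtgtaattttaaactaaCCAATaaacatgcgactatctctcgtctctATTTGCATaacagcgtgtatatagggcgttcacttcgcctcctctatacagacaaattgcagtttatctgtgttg
Hist1h4f: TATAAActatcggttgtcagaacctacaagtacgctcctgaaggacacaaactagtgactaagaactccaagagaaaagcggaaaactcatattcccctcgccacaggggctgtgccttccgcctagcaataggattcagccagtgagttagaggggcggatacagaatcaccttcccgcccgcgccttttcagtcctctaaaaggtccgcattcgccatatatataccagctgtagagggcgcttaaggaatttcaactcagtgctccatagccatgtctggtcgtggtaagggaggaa
Hist1h1c: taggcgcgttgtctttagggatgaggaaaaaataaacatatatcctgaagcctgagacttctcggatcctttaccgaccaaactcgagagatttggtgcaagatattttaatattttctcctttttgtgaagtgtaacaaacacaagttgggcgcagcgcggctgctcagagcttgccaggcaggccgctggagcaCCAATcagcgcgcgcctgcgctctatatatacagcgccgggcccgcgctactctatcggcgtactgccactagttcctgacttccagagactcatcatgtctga
Hist1h2bm has CCAAT once on the printed strand and 2 times on the other (ATTGG), and the octamer. Hist1h4f lacks CCAAT, and its TATAAA lies at the far upstream end of the window. Hist1h1c has a single CCAAT and neither of the other motifs.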

How the data were processed

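The values are raw read counts per gene, as the authors deposited them. Per the file headers and row names, each file lists unmapped, multimapping, unassigned and ambiguous reads, then 53379 gene identifiers, with a column for both strands together and a column for each strand. Total RNA was depleted of ribosomal RNA, per the labels. The submitters' processing notes name mm10 and Cell Ranger 5.0.1. Sources used here give no aligner. Rows that name no gene held 85.6% to 94.1% of reads in BL6 and SmoA1 and 23.2% to 27.6% in Ptc, and did not enter library sizes or tests.

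GENCODE M21 on GRCm38 gave symbols for 53274 identifiers. Of the 54 files, 48 are parts of the 12 BL6 and SmoA1 libraries, 4 to each. Titles number these parts as biological replicates, as they do the Ptc files. Parts differed by no more than sampling noise (variance to mean ratio 0.857 to 0.938) and were added up, which leaves 18 libraries. The column for both strands was used.

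Each pair of groups was fitted alone with edgeR 4.0.16 under R 4.3.3, using filterByExpr, TMM, the quasi-likelihood test and Benjamini-Hochberg adjustment over all genes, with calls at 0.05. Each interaction used 12 libraries. Levels in CPM were scaled by TMM over the 12 BL6 and SmoA1 libraries and, separately, over the 6 Ptc libraries. Where a gene outside the family is given with a mean and SD, the scaling is that of its comparison. Alternatives were DESeq2 1.42.0, RLE factors, 2 other low-count filters (none, and 1 CPM on average), the column of a single strand, a joint fit of 18 libraries, the sample number as a replicate block, every library left out in turn, the first part of each file set, Ptc without libraries numbered 2, and loess offsets. Methods were tested on simulated counts. Sharing was counted over windows of GENCODE transcripts, and Poisson intervals are exact at 95%.

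Members, gene lists and comparisons were chosen with earlier results of these data known. Members were named if called, if among the 5 with the highest mean CPM not called in a comparison, or if highest by mean CPM in their class (2 in Ptc, 1 in BL6 and SmoA1). Other lists gave up to 4 called genes per direction and 2 not called, and not all of these are printed. Slbp, Npat, Nasp, and members described library by library in Ptc beyond this rule, were picked with their values in view.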

Additional observations from a re-analysis of the deposited data

How the results depend on the processing

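The number of histone genes called was compared over the alternatives, and the cause of each difference was not tested. For 1 Gy in Ptc, where none was called, DESeq2 called 3 and the fit of all 18 libraries called 3. For SmoA1 against BL6 in sham, where 1 was called, the count was 4 with no filter on low counts, 4 with a mean of at least 1 CPM, 0 in the strand column (Hist2h4 not tested there), 0 in the fit of all 18 libraries and 1 to 2 with a library left out. Without BL6 sham replicate 1, Hist1h1d was called too, and without replicate 3, Hist3h2ba. Same-numbered libraries correlated between -0.0407 and 0.19 in their deviations from the group mean, and differently numbered ones between -0.207 and 0.150. With so few libraries in a group, this cannot decide whether the numbers pair the samples. For SmoA1 against BL6 in sham, the fit with a replicate block called 2 histone genes, Hist2h4 and Hist3h2ba, and in Ptc it called none. After 1 Gy the count for SmoA1 against BL6 was 1 with no filter and 0 to 1 with a library left out. No histone gene was called in the other comparisons under any alternative that tested one. Part 1 of the files alone left no histone gene tested outside the Ptc and SmoA1 interaction. The mean summed level went from 414 to 367 CPM in BL6 1 Gy and from 503 to 456 CPM in SmoA1 1 Gy without the member with the largest count, and from 256 to 147 CPM in Ptc 1 Gy without replicate 2. Over all genes, calls ranged from 0 to 16 (1 Gy in BL6), 0 to 969 (1 Gy in SmoA1), 0 to 1152 (1 Gy in Ptc), 17 to 4422 (SmoA1 against BL6, sham), 0 to 2235 (after 1 Gy), 0 to 449 (SmoA1 and BL6 interaction) and 0 to 110 (Ptc and SmoA1 interaction). Hist2h4 was between -1.82 and -1.44 on the log2 scale in every fit that tested it. Depth limits the BL6 and SmoA1 libraries, where 2 of 70 histone genes had at least 10 counts in every library.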
